A study of Sus scrofa domesticus with 12 samples.

Results

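Striated muscle contracts when calcium binds the troponin complex on the thin filament. The complex holds a calcium-binding subunit (troponin C), an inhibitory subunit (troponin I) and a subunit that anchors the complex to tropomyosin (troponin T). Fast fibres and slow fibres build it from separate genes, and the make-up of the complex is a common readout of fibre type. The 7 genes described here were chosen by name from 11506 gene names in the table. TNNC2, TNNI2 and TNNT3 encode the fast C, I and T subunits. TNNI1 and TNNT1 encode the slow I and T subunits, and TNNC1 encodes the C subunit that slow fibres share with the heart. TNNT2 encodes the cardiac troponin T, which skeletal muscle is known to use during development. All 7 passed the filter on low values. In the Sscrofa11.1 annotation TNNI2 and TNNT3 have 2 genes between them, TNNI1 and TNNT2 have 1, and TNNT1 lies directly beside TNNI3, the cardiac troponin I gene. No sequences are shown.

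RNA was sequenced from the peroneus tertius muscle, the main dorsiflexor of the pig's ankle, in 12 limbs of 11 young adult Yorkshire cross pigs 12 weeks after surgery. Sham limbs (pigs 025 and 026) were operated on but kept the muscle whole. In the other 10 limbs a piece of the middle of the muscle belly was excised, which is volumetric muscle loss (VML) injury. Of these, No repair limbs (pigs 017 left and 023) received nothing. HA limbs (pigs 016 and 017 right) received a hyaluronic acid hydrogel. ECM-SIS limbs (pigs 013, 014, 018, 021, 022 and 024) received a decellularized extracellular matrix (ECM). The labels name all 6 ECM-SIS, for small intestinal submucosa, while the study describes a bladder matrix as well and lists limbs repaired with either among those sequenced. The group therefore holds both by the study's account, and which limb had which was not assigned here. Pig 017 gave a limb to each of No repair and HA, so these 2 limbs are not independent. Every comparison with Sham rests on the same 2 Sham limbs. Levels are in TPM, the share of all transcripts that a gene holds, which is scaled to transcript length and allows genes to be set side by side. TPM carry no read depth, so the counting error is not known. The precision depends on how many limbs a group has and on the spread of each gene. The fold-change fits share that spread among all groups, so wide HA values also widen the intervals of No repair.

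Muscle fibre markers were found in every limb, but in each injured limb the fibroblast and matrix genes given next summed to more TPM. The 9 listed genes of muscle fibres in the table, among them ACTA1, CKM and DES, summed to 78005 to 81699 TPM in Sham and to 5084 to 37497 TPM in the injured limbs. All 9 were above 0 in every group. Over the same limbs 8 fibroblast and matrix genes summed to 1154 to 1649 TPM in Sham and to 38709 to 100872 TPM in the injured limbs, and 6 macrophage genes to 23.002 to 36.9 TPM and to 442 to 1199 TPM. Their part in the troponin levels was not tested. In bulk tissue, fewer fibres and less troponin RNA per fibre cannot be told apart. The ECM-SIS limbs of pigs 014 and 018 stood apart by low levels of very long muscle transcripts beside a short one. Titin (TTN) was at 1.28% and 1.59% of the CKM level there and at 8.18% to 61.7% in the other 10 limbs. Several results that rest on these 2 limbs are given with and without them. Others are given only with them, among them single-gene correlations, likeness to other genes and the other fast and slow pairs.

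Troponin transcripts were among the main messages of Sham muscle and were lower after VML injury. The 7 genes summed to 50392 and 50366 TPM in the Sham limbs, which was 6.77% and 7.04% of the TPM of all listed genes. The sum was 14082 and 16432 TPM in No repair, 4209 and 29950 TPM in HA, and between 4095 and 16641 TPM (median 10706) in ECM-SIS. Every injured limb was below both Sham limbs. The spread within the injured limbs was itself wide, from 4095 TPM in the ECM-SIS limb of pig 014 to 29950 TPM in the HA limb of pig 017.

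**Figure D1:**
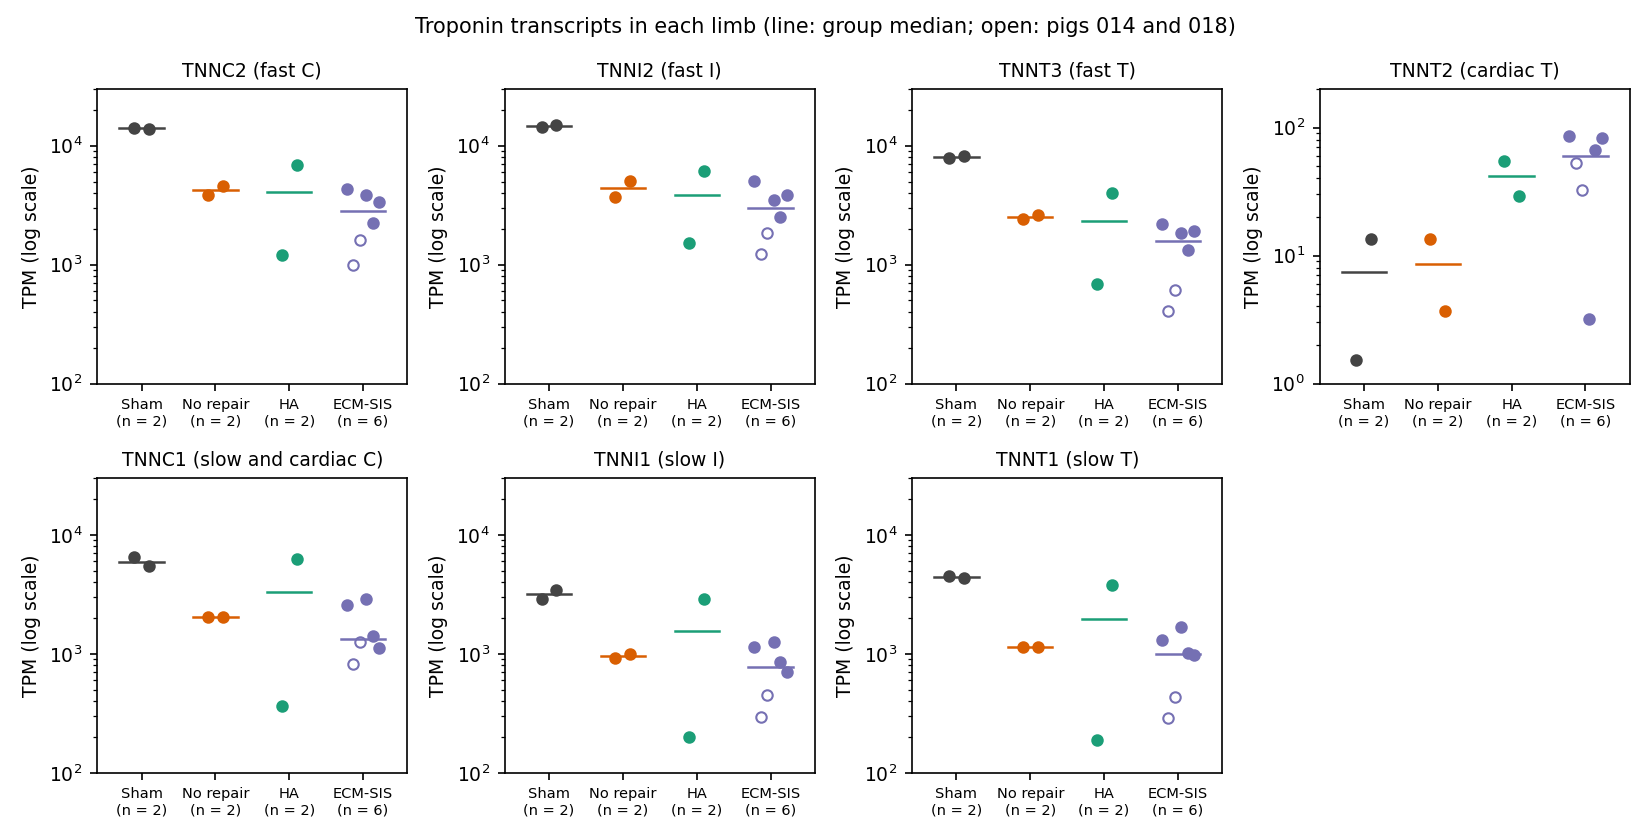
TPM of each troponin gene (y axis, log scale) in every limb by group (x axis), with points for limbs, a line for the group median and open points for pigs 014 and 018. For TNNC2, TNNI2, TNNI1, TNNT3 and TNNT1 both Sham limbs lie above all 10 injured limbs, while TNNC1 and TNNT2 overlap.

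TNNC2, the fast calcium sensor, was at 14170 and 13831 TPM in Sham. It was at 3848 and 4588 TPM in No repair, 1195 and 6896 TPM in HA, and 994 to 4287 TPM in ECM-SIS (median 2802, mean 2728 ± 1319.7 SD, n = 6). Both Sham limbs were above all 10 injured limbs. VML-injured limbs fell below Sham with a log2 fold change of -2.19 (SE 0.61, limma adjusted p = 0.00931).

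TNNC1, the slow and cardiac calcium sensor, was at 6492 and 5467 TPM in Sham. Its level was 2044 and 2047 TPM in No repair, and 823 to 2882 TPM in ECM-SIS (median 1336, mean 1675 ± 839 SD, n = 6). The HA limbs held the lowest and the highest injured values, at 362 TPM in pig 016 and 6238 TPM in pig 017. The latter lay between the 2 Sham limbs, so the groups overlapped. The log2 fold change was -1.83 (SE 0.79), and it missed the threshold (limma adjusted p = 0.0647). It passed without the HA limb of pig 017 (-2.52, limma adjusted p = 0.000453) and without the HA limb of pig 016 (-1.15, limma adjusted p = 0.0455).

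TNNI2, the fast inhibitory subunit, was the most abundant of the 7 in both Sham limbs, at 14368 and 14999 TPM. It was at 3716 and 5026 TPM in No repair, 1520 and 6160 TPM in HA, and 1230 to 5055 TPM in ECM-SIS (median 3019, mean 2999.6 ± 1403 SD, n = 6). The groups did not overlap. TNNI2 fell in VML-injured limbs with a log2 fold change of -2.16 (SE 0.54, limma adjusted p = 0.00490).

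TNNI1, the slow inhibitory subunit, was at 2910 and 3460 TPM in Sham, the lowest of the 6 fast and slow genes. It was at 924 and 1002 TPM in No repair, 201 and 2884 TPM in HA, and 296 to 1265 TPM in ECM-SIS (median 779, mean 784 ± 378 SD, n = 6). The HA limb of pig 017 lay just under the lower Sham limb. The fall had a log2 fold change of -1.99 (SE 0.78, limma adjusted p = 0.0460).

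TNNT3, the fast tropomyosin anchor, was at 7946 and 8260 TPM in Sham. It was at 2400 and 2617 TPM in No repair, 687 and 3970 TPM in HA, and 407 to 2213 TPM in ECM-SIS (median 1585, mean 1385 ± 739 SD, n = 6). The 2 lowest values of all limbs belonged to pigs 014 and 018, at 407 and 612 TPM. TNNT3 fell with a log2 fold change of -2.26 (SE 0.68, limma adjusted p = 0.0138).

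TNNT1, the slow tropomyosin anchor, was at 4506 and 4335 TPM in Sham. It was at 1136 and 1148 TPM in No repair, 189 and 3773 TPM in HA, and 291 to 1676 TPM in ECM-SIS (median 991, mean 949 ± 521 SD, n = 6). All injured limbs were below Sham. The fall was -2.26 on the log2 scale (SE 0.89, limma adjusted p = 0.0470).

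In all, 5 of the 7 genes were called lower in VML-injured limbs and 0 higher. Over the 8782 genes tested, 7.66% were called lower and 49.4% higher. The Sham limbs lay above all 10 injured limbs for 5 of the 7 genes and for 8.52% of the tested genes, and below them for 0 of the 7 and for 49.8%. The median log2 fold change was -2.16 over the 7 genes and 0.73 over all tested genes. Rescaling the limbs by a trimmed mean brought the latter to -0.03 and the median of the 7 genes to -2.98, with 6 genes called lower against a background of 29.4%. TNNC1 was the sixth, at -2.66 (limma adjusted p = 0.0235). The count moved with single limbs. The share of all tested genes in those fits is not given, so the moves are not read as a result about the troponins. Without either Sham limb only TNNI2 was called. Without either No repair limb, or without the ECM-SIS limb of pig 018 or of pig 022, TNNC2, TNNI2 and TNNT3 were called and TNNI1 and TNNT1 missed the threshold. Leaving out pigs 014 and 018 together kept the count at 5, where 7.9% of the genes then tested were called lower.

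The 3 injured groups were also set against Sham one at a time. In ECM-SIS 5 genes were lower, where 10% of tested genes were, with log2 fold changes of -2.53 for TNNC2 (limma adjusted p = 0.00459), -2.44 for TNNI2 (0.00267), -2.79 for TNNT3 (0.00503), -2.18 for TNNI1 (0.0347) and -2.45 for TNNT1 (0.0377). TNNC1 was at -1.98 and missed the threshold (limma adjusted p = 0.0543). Without pigs 014 and 018 the 3 fast genes remained called and the count was 3, where 622 of 8794 tested genes were lower. It was also 3 without either of these limbs alone. Trimmed-mean rescaling brought the count to 6, where 2688 of 8811 tested genes were lower. TNNC1 was then at -2.78 (limma adjusted p = 0.0210). The count was likewise 6 with 1 TPM required in all limbs, without the trend and robust settings, and with only the groups compared. Counts given without such a share are not read as a result about the troponins. No difference between fast and slow genes is read from these moves.

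In No repair 1 gene, TNNI2, was lower, where 1.18% of tested genes were (log2 fold change -1.76, limma adjusted p = 0.0491), and 0 were higher, where 45.1% were. The other 5 fast and slow genes had log2 fold changes of -1.54 to -1.95 in this group. The fit shares its spread with the HA limbs, and TNNC1 had an SE of 0.99 in both groups against Sham. After rescaling 3 genes were called lower in No repair against 21.7%. The count was 0 without the ECM-SIS limb of pig 018, 021, 022 or 024. It also moved when a Sham, No repair or HA limb was left out. The share of all tested genes in these fits is not given, so these moves are not read as a result about the troponins.

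In HA 2 genes were lower, TNNC2 (log2 fold change -2.29, limma adjusted p = 0.0340) and TNNI2 (-2.26, limma adjusted p = 0.0205), where 3.76% of tested genes were, and 0 were higher, where 33.9% were. TNNT3 was at -2.29 and missed the threshold (limma adjusted p = 0.0517). After rescaling 3 genes were called lower against 21%. The count changed with which HA limb was left out, and also without either Sham limb. The share of all tested genes in these fits is not given, so the change is not read as a result about the troponins.

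**Figure D2:**
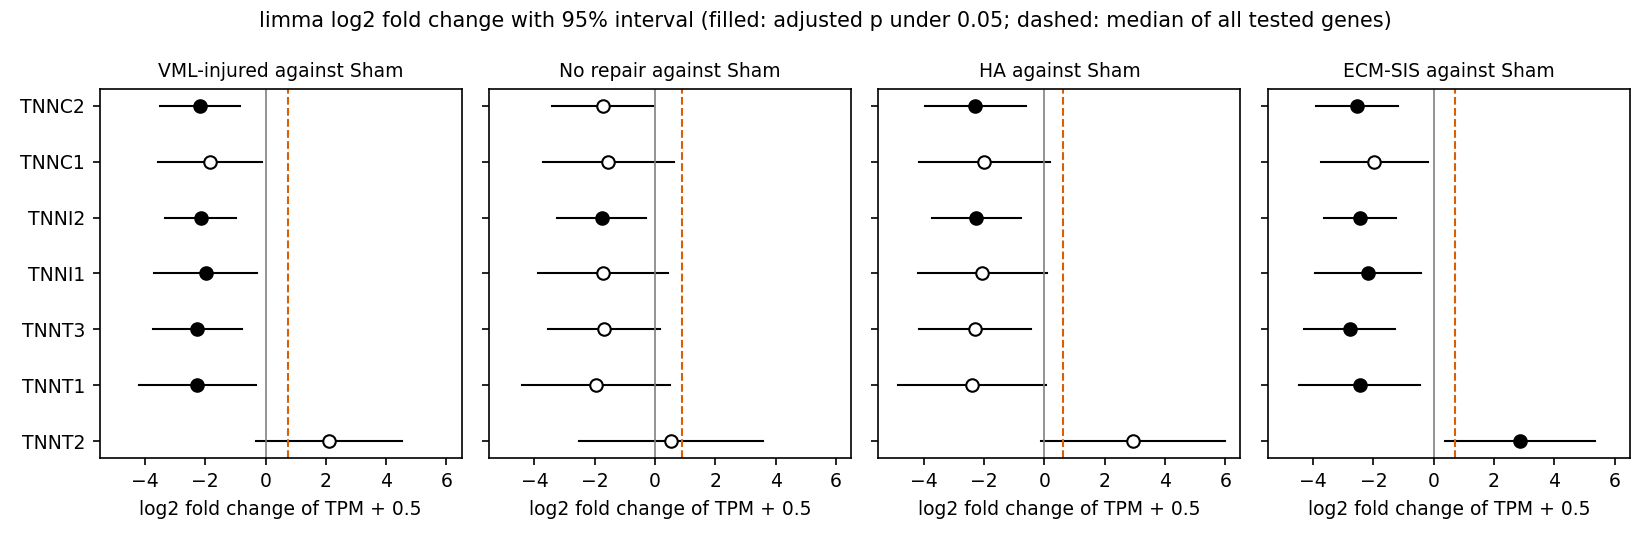
Log2 fold change of TPM + 0.5 (x axis) of each troponin gene (y axis) with its 95% interval, in 4 comparisons with Sham, filled where the limma adjusted p was under 0.05. The dashed line is the median of all tested genes, at 0.73 for VML-injured limbs, and the 6 fast and slow genes lie left of 0 in every panel.

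No gene of the 7 passed the test between the injured groups. Between ECM-SIS and the injured limbs without ECM, 0 of the 7 genes and 0% of all tested genes passed the threshold. Of the 8782 tested genes, 114 had an unadjusted limma p under 0.05. The counts past the threshold were likewise 0 for ECM-SIS against No repair, ECM-SIS against HA and HA against No repair. In these, 71, 206 and 196 genes had an unadjusted limma p under 0.05. Chance alone would put a share of about 0.05 of the tested genes under that p. The share was smaller in each of these comparisons, so the unadjusted counts are not read as a sign of differences between the injured groups. The intervals were wide. ECM-SIS minus the injured limbs without ECM was -0.52 on the log2 scale for TNNC2 (95% interval -1.60 to 0.56), -0.43 for TNNI2 (-1.38 to 0.52) and -0.80 for TNNT3 (-1.997 to 0.40). It was -0.21 for TNNC1 (-1.61 to 1.19), -0.29 for TNNI1 (-1.68 to 1.09), -0.29 for TNNT1 (-1.87 to 1.30) and 1.12 for TNNT2 (-0.84 to 3.09). A difference of 2-fold in either direction lay inside the interval for each gene, except a higher level of TNNC2, TNNI2 and TNNT3 and a lower level of TNNT2 in ECM-SIS.

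The ratio of fast to slow TPM within a subunit asks which fibre type prevailed in the muscle that was sampled, and it does not depend on how the limbs are scaled. For troponin C, TNNC2 over TNNC1 was 2.18 and 2.53 in Sham. The ratio was 1.88 and 2.24 in No repair, 3.30 and 1.11 in HA, and 1.21 to 3.03 in ECM-SIS (median 1.47, mean 1.69 ± 0.683 SD, n = 6). Fast troponin C was the larger share in every limb. The slow gene made up 31.4% and 28.3% of troponin C in Sham and 23.2% to 47.5% in the injured limbs.

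For troponin I, TNNI2 over TNNI1 was 4.94 and 4.33 in Sham. It was 4.02 and 5.02 in No repair, 7.56 and 2.14 in HA, and 2.77 to 5.42 in ECM-SIS (median 4.12, mean 3.98 ± 0.981 SD, n = 6). This was the most fast-biased of the subunits in each of the 12 limbs, with a slow share of 16.8% and 18.7% in Sham and 11.7% to 31.9% in the injured limbs.

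For troponin T, TNNT3 over TNNT1 was 1.76 and 1.91 in Sham. It was 2.11 and 2.28 in No repair, 3.63 and 1.05 in HA, and 1.10 to 1.97 in ECM-SIS (median 1.40, mean 1.48 ± 0.307 SD, n = 6). Both No repair limbs were above both Sham limbs, and 4 of the 6 ECM-SIS limbs were at or under 1.40. In an exact test 2 limbs against 2 have 6 possible splits and cannot pass the threshold.

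The 3 ratios differed between injured and Sham limbs by less than the spread of the injured limbs. The difference of mean log2 ratios was -0.43 for troponin C (exact permutation p = 0.348, adjusted 0.85), -0.20 for troponin I (exact permutation p = 0.636, adjusted 0.85) and -0.13 for troponin T (exact permutation p = 0.758, adjusted 0.85). In each case the injured limbs lay on both sides of the Sham limbs. ECM-SIS alone differed from Sham by -0.56, -0.26 and -0.34 (exact permutation p = 0.214, 0.5 and 0.214), and from the injured limbs without ECM by -0.31, -0.13 and -0.51 (exact permutation p = 0.4, 0.743 and 0.148). No adjusted p of these was below 0.571. The differences moved with the HA limbs. ECM-SIS minus the injured limbs without ECM was -0.07, 0.14 and -0.24 without the HA limb of pig 016 and -0.59, -0.46 and -0.84 without that of pig 017, so the sign for troponin I turned. Without pigs 014 and 018 it was -0.13, -0.18 and -0.48. Injured minus Sham ranged from -0.54 to -0.33 for troponin C, -0.31 to -0.10 for troponin I and -0.26 to -0.06 for troponin T as single limbs were left out. The smallest p that 2 Sham limbs allow is 0.0152 against 10 limbs and 0.0357 against 6.

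**Figure D3:**
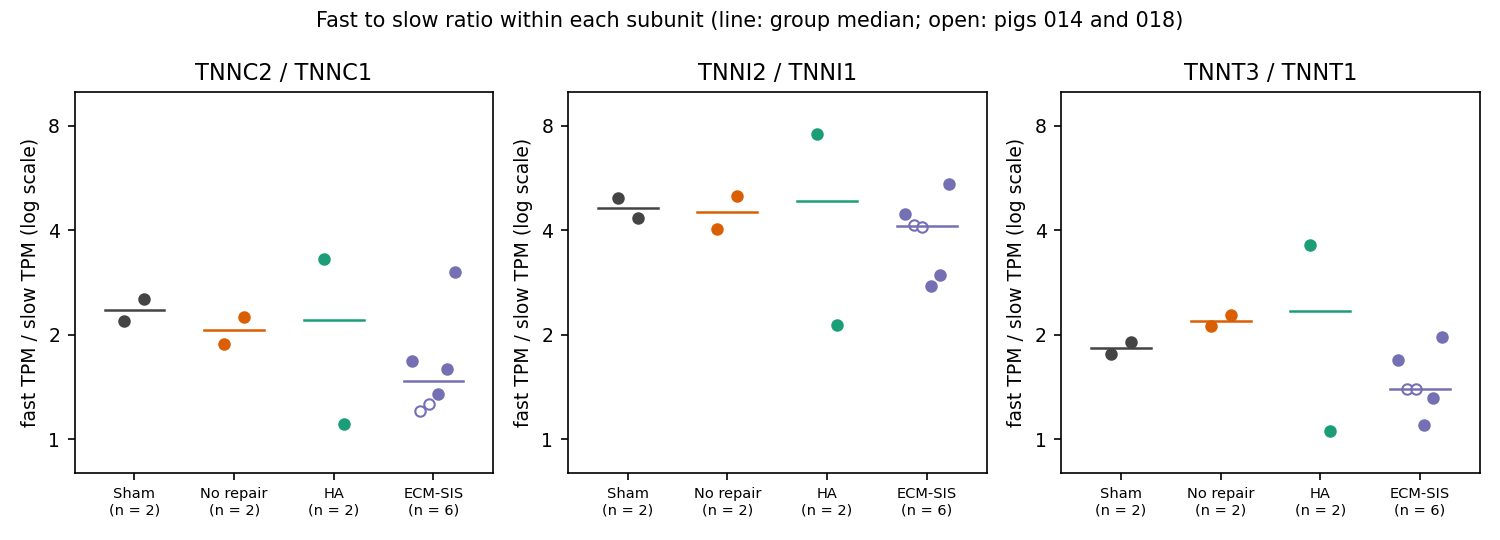
Ratio of fast to slow TPM (y axis, log scale) for each troponin subunit in every limb by group (x axis), with a line for the group median and open points for pigs 014 and 018. In each panel the 2 HA limbs are the highest and the lowest of the injured limbs, on either side of the Sham limbs.

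The 3 ratios moved together from limb to limb. The HA limb of pig 017 had the lowest ratio of the 10 injured limbs for all 3 subunits and the HA limb of pig 016 the highest, 2.98-fold apart for troponin C, 3.53-fold for troponin I and 3.44-fold for troponin T. Over the 10 injured limbs, the log2 ratios of troponin I and T had a Pearson r of 0.909 (permutation p = 0.00025, adjusted 0.00132) and a Spearman rho of 0.842 (permutation p = 0.00368, adjusted 0.0110). For troponin C and T, r was 0.883 (permutation p = 0.00044, adjusted 0.00132) and rho 0.867 (permutation p = 0.0019, adjusted 0.0110). For troponin C and I, r was 0.819 (permutation p = 0.00359, adjusted 0.00718) and rho 0.770 (permutation p = 0.0125, adjusted 0.0251). The adjustment covered 6 relations.

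Leaving out the 2 limbs farthest from the median of the first ratio gave r of 0.808, 0.881 and 0.628 for the 3 pairs in that order. For troponin C and I the relation therefore rested in part on the limbs of pigs 016 and 024. Without pigs 014 and 018, r was 0.949, 0.897 and 0.951, and without both limbs of pig 017 it was 0.942, 0.867 and 0.790. In that last setting rho was 0.952 for troponin I and T (permutation p = 0.00108, adjusted 0.00648). For troponin C and T and for troponin C and I it was 0.786, and both missed the threshold (permutation p = 0.0285 and 0.0276, adjusted 0.0570). Over the same 10 limbs the ratios had r of -0.30 (troponin I), -0.09 (troponin T) and 0.20 (troponin C) with the mean level of the muscle fibre genes (permutation p = 0.398, 0.808 and 0.581, adjusted 0.598, 0.808 and 0.697). Without pigs 014 and 018 these were -0.52, -0.60 and -0.45 over 8 limbs (permutation p = 0.186, 0.111 and 0.274, adjusted 0.223, 0.166 and 0.274). The sign for troponin C then turned. Leaving out also the 2 limbs farthest from the median of each ratio gave 0.64, 0.43 and -0.15. Without both limbs of pig 017 r was -0.11, 0.05 and 0.40 (permutation p = 0.795, 0.905 and 0.320, adjusted 0.905, 0.905 and 0.480). No direction is read from these values.

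**Figure D4:**
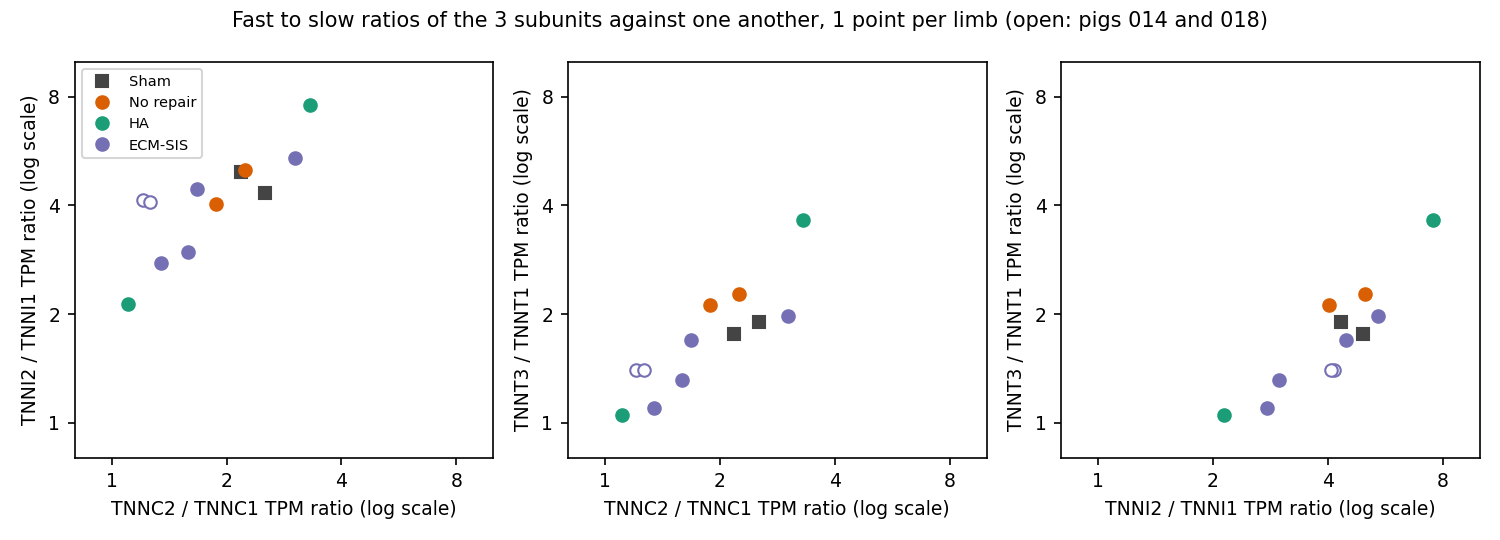
Ratios of fast to slow TPM of the 3 troponin subunits plotted against one another (both axes log scale), 1 point per limb, squares for Sham and open points for pigs 014 and 018. The injured limbs run from pig 017 HA at the lower left to pig 016 HA at the upper right, with r of 0.819, 0.883 and 0.909 from left to right.

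Pairs of single genes moved closely over the injured limbs, in data that share library and scaling. The log2 levels of TNNI1 and TNNT1 had r of 0.996, TNNC2 and TNNI2 0.988, and TNNC2 and TNNT3 0.981 (n = 10). The 6 fast and slow genes had r of 0.791 or more with each other, lowest for TNNC1 and TNNT3. TNNT2 had r of -0.32 to -0.39 with the 6.

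The genes most like the mean of the 3 fast troponins over the 10 injured limbs, among 4968 candidates, were STAC3 (r = 0.997), which takes part in coupling excitation to calcium release, TMOD4 (0.989), which caps thin filaments, the glycolytic enzyme gene LDHA (0.989), the Z-disc gene MYOT (0.989) and SH3BGR (0.989). Those most like the mean of the 3 slow troponins were MYL2 (r = 0.994), the slow regulatory myosin light chain, LOC100620599 (0.980), the slow tropomyosin gene TPM3 (0.979), TACO1 (0.976) and MYL3 (0.973), the slow essential myosin light chain. Fast and slow troponins themselves had r of 0.791 or more with each other. Likeness to either mean therefore does not by itself place a gene in a fibre type.

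Other fast and slow gene pairs of the sarcomere and of calcium storage were set beside the troponins in the same limbs, 9 pairs in all. The HA limb of pig 017 was the lowest of the injured limbs in 4 of the 9 and among the lowest 3 in 6, and the HA limb of pig 016 was the highest in 4 and among the highest 3 in 7. The 4 pairs with both were the fast over slow myosin heavy chains MYH1 over MYH7 (ratios 0.495 to 1.92) and MYH4 over MYH7 (0.0628 to 0.544), and the light chains MYL1 over MYL3 (4.35 to 25.4) and MYLPF over MYL2 (1.45 to 7.63). The pairs of MYH1, MYH2 and MYH4 share MYH7 as the slow gene, so they are not independent of each other. Not all pairs had this order. For the calcium-storing calsequestrins, CASQ1 over CASQ2, the highest injured limb was the HA limb of pig 017 at 145 and the lowest was that of pig 014 at 7.46. For the myosin-binding protein pair MYBPC2 over MYBPC1 the lowest was pig 018 and the highest was the No repair limb of pig 017.

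No partner ratio passed the test between injured and Sham limbs after adjustment over the 22 within-limb measures. CASQ1 over CASQ2 had the smallest p of the 9, with a log2 difference of -2.52 (exact permutation p = 0.0455, adjusted 0.5).

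Troponin levels were next taken relative to the mean log2 level of the 9 muscle fibre genes. These include the long transcripts TTN, NEB and RYR1, and TTN ran from 1.28% to 61.7% of CKM in the injured limbs. The scale therefore does not separate fibre content from the level of long transcripts. Relative TNNC1, for one, was 3.22 and 3.21 in pigs 014 and 018 and 0.09 in pig 024. On this scale none of the 6 fast and slow genes passed the test. The injured minus Sham difference was 0.15 on the log2 scale for TNNC2, 0.21 for TNNI2, 0.00 for TNNT3, 0.58 for TNNC1, 0.41 for TNNI1 and 0.14 for TNNT1, with exact permutation p of 0.485 to 0.985 and adjusted p of 0.85 to 0.985. All 6 overlapped. Without pigs 014 and 018 the differences of TNNC2, TNNI2, TNNT3 and TNNT1 turned to -0.10, -0.08, -0.15 and -0.08, and those of TNNC1 and TNNI1 were 0.21 and 0.13.

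The balance of the subunits did not pass a test either. Summed troponin C over summed troponin I was 1.05 and 1.196 in Sham and 0.904 to 1.45 in the injured limbs, a log2 difference of means of 0.06 (exact permutation p = 0.712). Troponin I over troponin T was 1.39 and 1.47 in Sham and 1.17 to 2.19 in the injured limbs (0.18, exact permutation p = 0.470). Troponin C over troponin T was 1.53 and 1.66 in Sham and 1.55 to 2.73 in the injured limbs (0.24, exact permutation p = 0.242). The adjusted p of these 3 were 0.85, 0.85 and 0.762. The highest values of C over T were those of pigs 014 and 018, at 2.60 and 2.73. Without these 2 limbs the differences of C over I, I over T and C over T were 0.04, 0.08 and 0.12.

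TNNT2, the cardiac troponin T, did not follow the other 6 genes. It was at 1.52 and 13.4 TPM in Sham, 13.4 and 3.67 TPM in No repair, 54.8 and 29.2 TPM in HA, and 3.18 to 85.2 TPM in ECM-SIS (median 60.0, mean 54.0 ± 31.8 SD, n = 6). Apart from pig 021 at 3.18 TPM, every ECM-SIS and HA limb was above every Sham and No repair limb. The log2 fold change of VML-injured limbs was 2.10 (SE 1.10) and missed the threshold (limma adjusted p = 0.122). Without pig 021 it was 2.33 and passed (limma adjusted p = 0.0129). After rescaling over all limbs it was 1.38 (limma adjusted p = 0.294), where 28.3% of tested genes were called higher.

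In ECM-SIS TNNT2 was higher than Sham, with a log2 fold change of 2.85 (SE 1.13, limma adjusted p = 0.0491), where 48% of tested genes were higher. This call was lost after rescaling, without pigs 014 and 018, and in 10 of the 12 fits that left out 1 limb, all but those without pig 026 and without pig 021. In HA it was 2.94 (SE 1.39, limma adjusted p = 0.114) and in No repair 0.52 (SE 1.39, limma adjusted p = 0.765). After rescaling these were 2.36 and -0.36 (limma adjusted p = 0.177 and 0.851), so the sign in No repair turned. TNNT2 remained a small part of troponin T, at 0.0122% and 0.106% of TNNT1, TNNT2 and TNNT3 together in Sham and at most 7.08% in the injured limbs, in pig 014. Relative to the muscle fibre genes its injured minus Sham difference was 4.88 on the log2 scale (exact permutation p = 0.0303, adjusted 0.5), and the groups overlapped. ECM-SIS minus the injured limbs without ECM was 1.83 on that scale (exact permutation p = 0.276, adjusted 0.742).

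Of 9 listed cardiac genes 7 were in the table. The cardiac transcription factor genes GATA4 and NKX2-5 and the natriuretic peptide genes NPPA and NPPB were at 0.323 TPM or less in every limb. TNNI3, the cardiac troponin I, was at 12.9 and 11.4 TPM in Sham and 1.78 to 8.70 TPM in the injured limbs, and missed the threshold at -0.99 on the log2 scale (limma adjusted p = 0.0910). MYL4, the atrial myosin light chain, was at 0.916 and 0.862 TPM in Sham and 0.137 to 4.47 TPM in the injured limbs (log2 fold change 0.13, limma adjusted p = 0.822). RYR2, the cardiac calcium release channel, rose from 0.0962 and 0.5802 TPM in Sham to 1.29 to 10.4 TPM in the injured limbs (log2 fold change 2.53, limma adjusted p = 0.00286). The part of such RNA in the TNNT2 level was not tested. The genes most like TNNT2 over the 10 injured limbs, of 4968, were ACTC1 (r = 0.926), the cardiac and developmental alpha-actin, CHRNA1 (r = 0.907), the muscle acetylcholine receptor alpha subunit, THYN1 (0.834), NUDT14 (0.810) and S100A1 (0.795).

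ACTC1 was at 52.2 and 119 TPM in Sham, 42.2 and 16.5 TPM in No repair, 97.9 and 59.8 TPM in HA, and 10.3 to 478 TPM in ECM-SIS. CHRNA1 was at 8.79 and 83.8 TPM in Sham, 25.95 and 10.6 TPM in No repair, 35.7 and 22.04 TPM in HA, and 5.70 to 185 TPM in ECM-SIS. In both, as in TNNT2, pig 021 was the lowest ECM-SIS limb, and pig 026 was the higher Sham limb. Neither gene passed the test between VML-injured and Sham limbs (log2 fold changes -0.23 and 0.09, limma adjusted p = 0.867 and 0.948). Of the 5 tested genes in the list of embryonic and denervation genes, 3 rose, namely RUNX1 (2.87, limma adjusted p = 0.000148), GADD45A (1.496, limma adjusted p = 0.000559) and NCAM1 (1.58, limma adjusted p = 0.00899), where 49.4% of all tested genes rose. After rescaling 2 of the 5 were called higher, where 28.3% of all tested genes were.

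**Figure D5:**
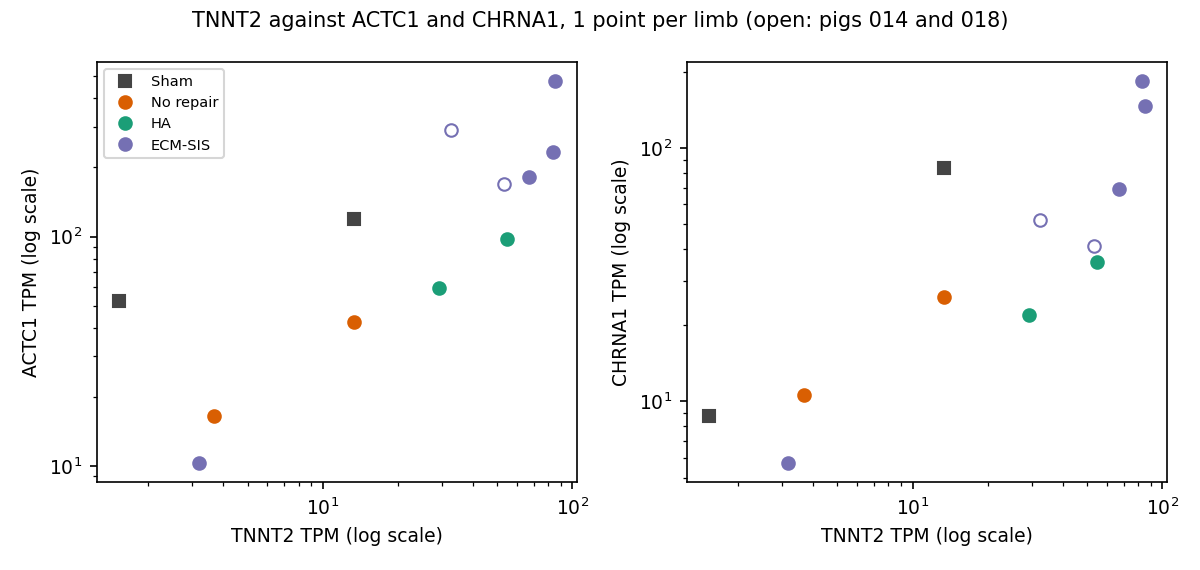
TPM of ACTC1 and CHRNA1 (y axes, log scale) against TPM of TNNT2 (x axis, log scale), 1 point per limb, squares for Sham and open points for pigs 014 and 018. The injured limbs rise together, with r of 0.926 and 0.907 on the log2 scale, and pig 021 sits at the lower left among the ECM-SIS limbs.

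The troponins were set beside other genes of the same machinery. The shares of all tested genes for these counts are 7.66% lower and 49.4% higher, and after rescaling 29.4% lower and 28.3% higher. Without pigs 014 and 018 they are 7.9% and 50.2%. Of 10 tested thin filament genes 8 fell in VML-injured limbs and 0 rose (median log2 fold change -2.11). Among them were the tropomyosins TPM1 (-2.15, limma adjusted p = 0.00754) and TPM2 (-2.27, limma adjusted p = 0.0130), skeletal actin ACTA1 (-2.36, limma adjusted p = 0.0112) and the filament cap TMOD1 (-1.79, limma adjusted p = 0.00867). Nebulin, NEB, was at -2.44 and missed the threshold (limma adjusted p = 0.118). Of 9 tested muscle fibre genes 5 fell (median -2.27), including CKM, the muscle creatine kinase (-2.21, limma adjusted p = 0.0183). After rescaling 9 of the 10 thin filament genes and 8 of the 9 muscle fibre genes were called lower, and without pigs 014 and 018 it was 9 of 10 and 9 of 9.

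Fast and slow partners had like medians and unlike counts. Of 10 tested fast partners 8 fell (median log2 fold change -2.20), among them MYLPF (-1.85, limma adjusted p = 0.0122), the calcium buffer PVALB (-2.32, limma adjusted p = 0.0158) and the fast myosin MYH4 (-3.43, limma adjusted p = 0.0179). Of 9 tested slow partners 3 fell (median -2.16), namely MYBPC1 (-2.40, limma adjusted p = 0.0332), TPM3 (-1.52, limma adjusted p = 0.0367) and MYOZ2 (-1.62, limma adjusted p = 0.0428). The slow myosin MYH7 was at -2.26 with an SE of 1.17 (limma adjusted p = 0.118). After rescaling 10 of 10 fast and 8 of 9 slow partners were called lower, and without pigs 014 and 018 it was 9 of 10 and 4 of 9. The difference between the lists was not tested.

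Of 19 tested regulators of fibre type and of muscle transcription 8 fell and 2 rose (median log2 fold change -1.25). TEAD1 (-2.47, limma adjusted p = 0.000405), which binds muscle gene promoters, SOX6 (-2.38, limma adjusted p = 0.00236), a repressor of slow genes, and the myogenic factor MYOD1 (-1.88, limma adjusted p = 0.00874) were among those that fell. The 2 that rose were RCAN1 (3.15, limma adjusted p = 3.00e-05), a calcineurin inhibitor and target, and VGLL3 (1.84, limma adjusted p = 0.000899), a TEAD cofactor. After rescaling 14 were called lower and 2 higher, and without pigs 014 and 018 10 were lower and 2 higher. In the same contrast, where 49.4% of all tested genes rose, all 8 fibroblast and all 6 macrophage genes tested rose. The counts were 2 of 4 for smooth muscle, 1 of 2 for Schwann cells, 1 of 3 for cardiac genes, 0 of 5 for endothelium and 0 of 3 for adipocytes, each near or below that share.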

How the data were processed

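Per the study's methods, libraries were made with TruSeq from total RNA, sequenced as paired ends, and quantified with kallisto against pig build 9.2 with its UCSC annotation. The authors deposited TPM, 1 value per gene name and limb, for 11506 names, of which 21 had been turned into dates by a spreadsheet. These names stayed in the fits. Of 1833 LOC names, 618 took a symbol from the Sscrofa11.1 gene table. The listed TPM summed to 71.5% to 82.7% of the full TPM total per limb, so part of each library was not analysed here. Counts, and with them read depth and a count test, were not used here.

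Genes with at least 1 TPM in all limbs of a group (8782) were tested with limma 3.58.1 (R 4.3.3) on log2(TPM + 0.5), with trend and robust settings, 1 coefficient per group over all 12 limbs, and Benjamini-Hochberg adjustment over all tested genes at 0.05. Fold changes are on this scale. VML-injured is the mean of the 3 injured coefficients. The step was tested on simulated data. Ratios, relative levels and subunit balances were compared with two-sided exact permutation tests over limbs (scipy 1.17.1), adjusted over 22 measures per comparison, and correlations with 100000 random pairings. The p-values measure the spread between limbs, 1 library each.

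Alternatives were trimmed-mean and median-of-ratios rescaling, pseudocounts of 0.1 and 1, other filters, and leaving out limbs or pigs. All 7 troponins are named, and from each list its counts, the partner pairs, the first 4 genes and the 3 with the smallest p, of which examples are given. Likeness was computed over tested genes with a mean of at least 10 TPM. The genes and lists were chosen with earlier results of these data known.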

Additional observations from a re-analysis of the deposited data

Results flagged for a closer look

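Over the 6 ECM-SIS limbs, 20 measures were screened for a limb far from the rest, and 2 had one, where chance gives about 1 in 20. TNNT2 was low in pig 021, at 3.18 TPM beside 32.5 to 85.2 TPM in the other ECM-SIS limbs. On the log2 scale the gap to the next limb took up 0.697 of the range of the group. The ratio of TNNC2 to TNNC1 was high in pig 024, at 3.03 beside 1.21 to 1.68 in the other ECM-SIS limbs, with a gap of 0.643 of the range on the log2 scale. Pig 024 also had the highest ECM-SIS ratios of TNNI2 to TNNI1 (5.42) and of TNNT3 to TNNT1 (1.97), without standing apart there.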

How the results depend on the processing

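With 2 Sham limbs, counts of called troponin genes moved with most choices. No log2 fold change of a troponin gene in VML-injured limbs changed sign. The share of all tested genes called also moved, as in No repair, where 1.18% were lower before and 21.7% after rescaling. Troponin counts given without that share, here and above, are therefore not read as a result about the troponins. The count lower in VML-injured limbs (5) was 3 with no filter and 1 to 6 as single limbs were left out. The count higher there (0) became 0 to 1 as single limbs were left out, with TNNT2 called without pig 021. In ECM-SIS against Sham, the count lower (5) was 3 without pigs 014 and 018, an alternative chosen after seeing the data, and 3 to 6 as single limbs were left out. The count higher (1, TNNT2) was 0 after trimmed-mean or median-of-ratios rescaling, with a pseudocount of 0.1, with no filter, with only the groups compared, without both limbs of pig 017 and without pigs 014 and 018, and 0 to 1 as single limbs were left out. In No repair against Sham, the count lower (1) was 3 after trimmed-mean or median-of-ratios rescaling and without pigs 014 and 018, 6 with only the groups compared, 0 with no filter, with 1 TPM required in all limbs and without both limbs of pig 017, and 0 to 5 as single limbs were left out. In HA against Sham, the count lower (2) was 1 with no filter, 0 with only the groups compared, 6 without both limbs of pig 017 and 0 to 6 as single limbs were left out. The count higher (0) was 1 with only the groups compared, and 0 to 1 as single limbs were left out.

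The ratio of TNNI2 to TNNI1 between ECM-SIS and the injured limbs without ECM turned from -0.13 to 0.14 without the HA limb of pig 016, and ranged from -0.46 to 0.14 as single limbs were left out. Relative to muscle fibre genes, the differences of TNNC2, TNNI2 and TNNT1 turned to -0.103, -0.0818 and -0.0836 without pigs 014 and 018. That of TNNT3, 0.0039, turned to -0.0012 with a pseudocount of 1, -0.0761 without pig 017, -0.0316 with the limbs of pig 017 averaged, -0.15 without pigs 014 and 018, and -0.10 with TTN, NEB and RYR1 left out of the muscle genes, the latter also chosen after seeing the data. Leaving out single limbs gave -0.0670 to 0.0821. The balance of C over I gave -0.0397 to 0.154 as single limbs were left out. The causes were not tested. No alternative brought a troponin ratio past the threshold. Counts not named here moved by less than 1.5 times, which can still hold a gene that crossed the threshold, such as TNNC1 after rescaling. No paired analysis was possible because only pig 017 gave limbs to 2 groups.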

Other observations

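Among the other fast and slow gene pairs, the Z-disc genes MYOZ1 and MYOZ2 separated the ECM-SIS limbs from the rest. The log2 ratio of MYOZ1 to MYOZ2 was 1.22 to 2.51 in the 6 ECM-SIS limbs, 2.60 to 3.43 in the 4 injured limbs without ECM, and 2.99 to 3.14 in Sham. ECM-SIS minus the injured limbs without ECM was -1.13 (exact permutation p = 0.00952, adjusted 0.210 over 22 measures), which failed the adjustment, and all 6 ECM-SIS limbs lay below the other 4. The pair was chosen after its values were seen.

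The calsequestrins, which store calcium in fast fibres (CASQ1) and in slow fibres and the heart (CASQ2), gave a log2 ratio of CASQ1 to CASQ2 of 7.09 and 8.35 in Sham and 2.90 to 6.15 in the ECM-SIS limbs. The difference was -3.22 (exact permutation p = 0.0357, the smallest these limbs allow, adjusted 0.262). By contrast with the troponin ratios, the HA limb of pig 017 had the highest injured value here, at 7.18.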
